A study of Mus musculus with 6 samples.

Results

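*Trav19* is one of the *Trav* segments that lie closest to the *Traj* array of the TCR α locus, and its rearrangements were compared between 2 libraries, 1 from WT BALB/c mice and 1 from SKG mice, out of 6 libraries in the series. Sequences were chosen when the V assignment listed *Trav19* and the J assignment listed a single *Traj* gene. In the WT library 422177 of 426678 sequences met this rule, and in the SKG library 390731 of 397079 did, so that 812908 of the 3675237 sequences of the series were used. Of all sequences, 98.9% in the WT library and 98.4% in the SKG library listed *Trav19*, and those that did listed no other V gene.

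SKG mice carry a hypomorphic point mutation in *Zap70*, the kinase that relays the signal of the TCR, on a BALB/c background, and they are prone to arthritis. WT and SKG mice descended from a cross of SKG to BALB/cJ mice, but offspring of each genotype were then bred apart from the other. Genotype and breeding line can therefore not be told apart. The labels name no treatment, and the age of the mice and the number pooled for a library are not given in the sources used here. The sorted cells were pre-selection double-positive (DP) thymocytes, gated as carrying CD4 and CD8α but lacking TCRβ, CD69 and CD5. By these markers they had not yet received a positive selection signal. Their RNA was reverse transcribed and amplified from a primer in *Trav19* to a primer in the constant region. The question of the comparison was whether *Traj* use was shifted along the array where TCR signals are weak.

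A TCR α chain is made when the recombinase cuts at the signals beside a *Trav* and a *Traj* segment and joins them. DP thymocytes join first to the *Traj* segments nearest the *Trav* segments, which have the highest numbers, and they can replace a join with another between an outer *Trav* and a *Traj* segment farther down the array, until positive selection ends the process or the cell dies. A join that keeps the reading frame through the junction is productive. Unproductive joins encode no α chain and cannot be selected through one.

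Each *Traj* segment is preceded by a recombination signal, made of a nonamer, a spacer of 12 bases and a heptamer, and its strength differs between segments. The segments on which the comparison turns are shown here with this signal, at which the recombinase cuts. *Trav19* was joined to the coding bases behind it and not to the signal. Shown are the most used segments (*Traj58*, *Traj57*, *Traj56* and *Traj53*). Examples of segments past 1.5-fold between the libraries follow (*Traj52*, *Traj39*, *Traj26*, *Traj16*, *Traj15*, *Traj11* and *Traj4*). There are also examples in which productive and unproductive sequences went opposite ways (*Traj44* and *Traj12*, besides *Traj26*). Capitals mark the nonamer and the heptamer, and the lower-case bases are the spacer and the annotated segment. At *Traj57* the heptamer found takes in the first 2 bases of the annotated segment, which are therefore capitals. All lie on the plus strand of NCBIM37, an assembly of the C57BL/6 strain and not of BALB/c, at positions of the GENCODE annotation, whose older names were matched to *Traj* symbols through a RefSeq table.
*Traj58*, chr14:54776927-54777017: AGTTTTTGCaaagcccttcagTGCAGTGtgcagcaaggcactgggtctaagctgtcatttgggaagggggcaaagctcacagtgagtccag
*Traj57*, chr14:54778154-54778244: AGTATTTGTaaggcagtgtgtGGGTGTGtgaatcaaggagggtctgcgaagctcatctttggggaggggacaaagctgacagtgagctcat
*Traj56*, chr14:54778910-54779000: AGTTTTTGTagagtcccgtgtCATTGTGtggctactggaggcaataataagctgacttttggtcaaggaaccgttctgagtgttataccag
*Traj53*, chr14:54782291-54782384: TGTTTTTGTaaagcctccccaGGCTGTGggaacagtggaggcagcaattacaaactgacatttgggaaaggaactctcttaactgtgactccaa
*Traj52*, chr14:54784963-54785056: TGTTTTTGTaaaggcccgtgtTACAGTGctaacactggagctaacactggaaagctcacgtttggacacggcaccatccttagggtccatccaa
*Traj44*, chr14:54793337-54793425: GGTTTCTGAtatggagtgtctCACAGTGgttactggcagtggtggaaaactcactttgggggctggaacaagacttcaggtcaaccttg
*Traj39*, chr14:54799609-54799699: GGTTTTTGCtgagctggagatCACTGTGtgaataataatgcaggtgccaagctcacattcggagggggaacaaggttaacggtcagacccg
*Traj26*, chr14:54814137-54814224: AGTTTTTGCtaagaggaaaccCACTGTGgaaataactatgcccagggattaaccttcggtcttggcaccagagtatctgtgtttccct
*Traj16*, chr14:54822781-54822869: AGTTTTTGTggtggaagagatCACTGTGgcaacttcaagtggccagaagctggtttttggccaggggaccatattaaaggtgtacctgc
*Traj15*, chr14:54824069-54824156: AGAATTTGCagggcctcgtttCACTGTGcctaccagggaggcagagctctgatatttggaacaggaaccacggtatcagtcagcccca
*Traj12*, chr14:54826200-54826285: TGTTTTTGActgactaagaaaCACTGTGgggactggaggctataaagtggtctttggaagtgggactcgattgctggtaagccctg
*Traj11*, chr14:54826786-54826872: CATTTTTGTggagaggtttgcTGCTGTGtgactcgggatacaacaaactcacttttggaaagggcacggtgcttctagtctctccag
*Traj4*, chr14:54835938-54836028: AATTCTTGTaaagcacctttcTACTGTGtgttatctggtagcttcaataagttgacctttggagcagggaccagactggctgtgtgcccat

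The heptamer CACTGTG was matched without a mismatch at 16 of the 59 *Traj* segments named in the annotation (27.1%), when it was sought on the plus strand within 8 bases of the annotated start. It occurred in 1.06% of all windows of 28 bases of the array on the same strand and in 0.483% on the other strand. In the list above it is matched by *Traj39*, *Traj26*, *Traj16*, *Traj15* and *Traj12*. None of the 4 most used segments matched it exactly, and among proximal segments the median WT share was 1.60% over 6 segments with the exact heptamer and 3.11% over 16 segments with at least 1 mismatch. A match is a description of the reference and was not tested as a cause of use.

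The array covers 63.8 kb, and from the end of *Trav19* it is 311 kb to *Traj58* and 372 kb to *Traj2*. Of 61 segment numbers, 47 were seen in at least 1 of the libraries and 14 in neither. Shares below are percentages of the productive *Trav19* sequences of a library, 234415 in WT and 252048 in SKG, unless the unproductive ones are named, 187762 in WT and 138683 in SKG. A count of 0 allowed a share of up to 0.00128% in WT and 0.00119% in SKG. Intervals are 95% binomial confidence intervals (CI, Wilson) and cover counting error only, because PCR products without molecular identifiers are not independent molecules. More cells with a join and more distinct sequences per cell cannot be told apart in these counts. With 1 library per genotype no difference had a replicate check, and no p-value is given.

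The SKG library held fewer joins to the proximal end of the array and more to every window beyond it. Segments 61 to 54, among which *Traj58*, *Traj57* and *Traj56* held all productive sequences, made up 42.7% of WT and 39.2% of SKG sequences, and segments 53 to 47 made up 29.5% and 26.7%. These are the segments that a first join reaches most often. From segment 46 onward each window was higher in SKG, with 14.7% in WT and 16.6% in SKG for segments 46 to 37, and with 8.73% and 10.1% for segments 36 to 31. The points gained in these windows, 1.88 and 1.32, exceeded those gained in any window farther out.

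Relative to its WT level, a distal window of productive *Trav19* sequences gained more the farther it lay from *Trav19*. Segments 30 to 21 were 1.31-fold higher in SKG (1.98% in WT and 2.60% in SKG), segments 20 to 10 were 1.77-fold higher (reaching 2.65% in SKG), and segments 9 to 1 were 2.52-fold higher (0.849% and 2.14%). In points these gains were small, at 0.613, 1.15 and 1.29, and together they form the difference in the distal share of 3.06 points (95% CI 2.93 to 3.19). Unproductive sequences had the same direction in 6 of the 7 windows. Their exception was the window of segments 30 to 21, at 2.40% in WT and 2.15% in SKG.

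**Figure D1:**
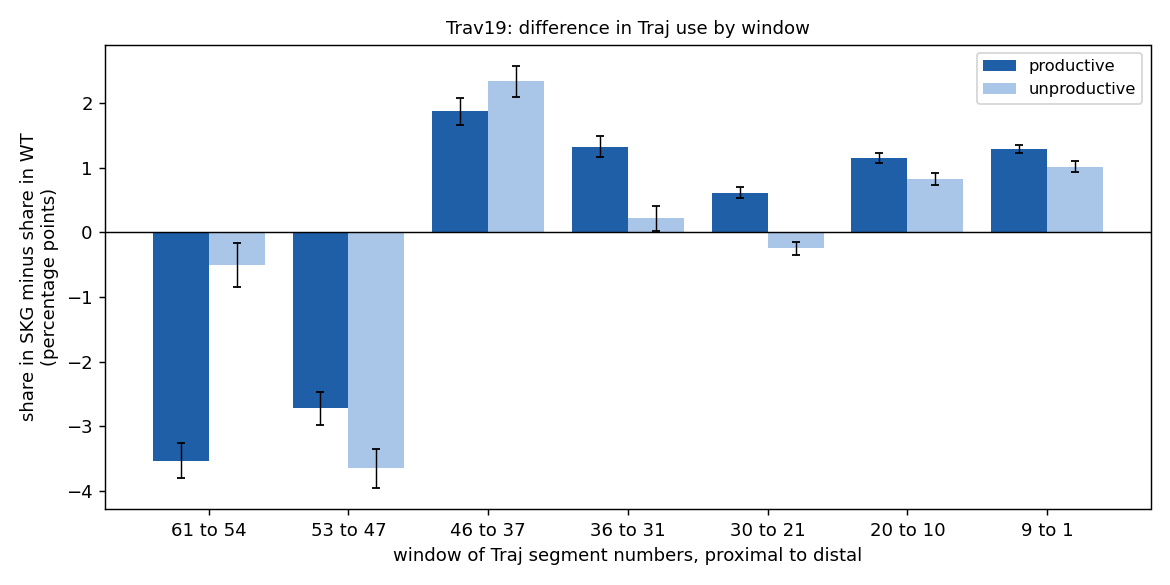
The share of *Trav19* sequences in SKG minus that in WT, in percentage points (y axis), is plotted for 7 windows of *Traj* segments from proximal to distal (x axis), for productive (dark) and unproductive (light) sequences of 1 library per genotype. Bars are differences and error bars 95% counting intervals, and both windows above segment 46 were lower in SKG in both classes, while the window of segments 30 to 21 was higher among productive sequences by 0.613 points but was at 2.40% in WT and 2.15% in SKG among unproductive ones.

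Summed from *Traj61* downward, the libraries were farthest apart at *Traj44*, where 75.8% of WT and 69.1% of SKG productive sequences had been reached. Unproductive sequences were farthest apart at *Traj47*, with 74.5% and 70.3%. The deficit of SKG therefore built up within the proximal segments in either class. The joins reached farther down the array in SKG, since 90% of the productive sequences were reached at *Traj34* in WT and at *Traj31* in SKG, and 95% at *Traj31* and *Traj21*. For unproductive sequences, 95% were reached at *Traj31* in WT and at *Traj23* in SKG.

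**Figure D2:**
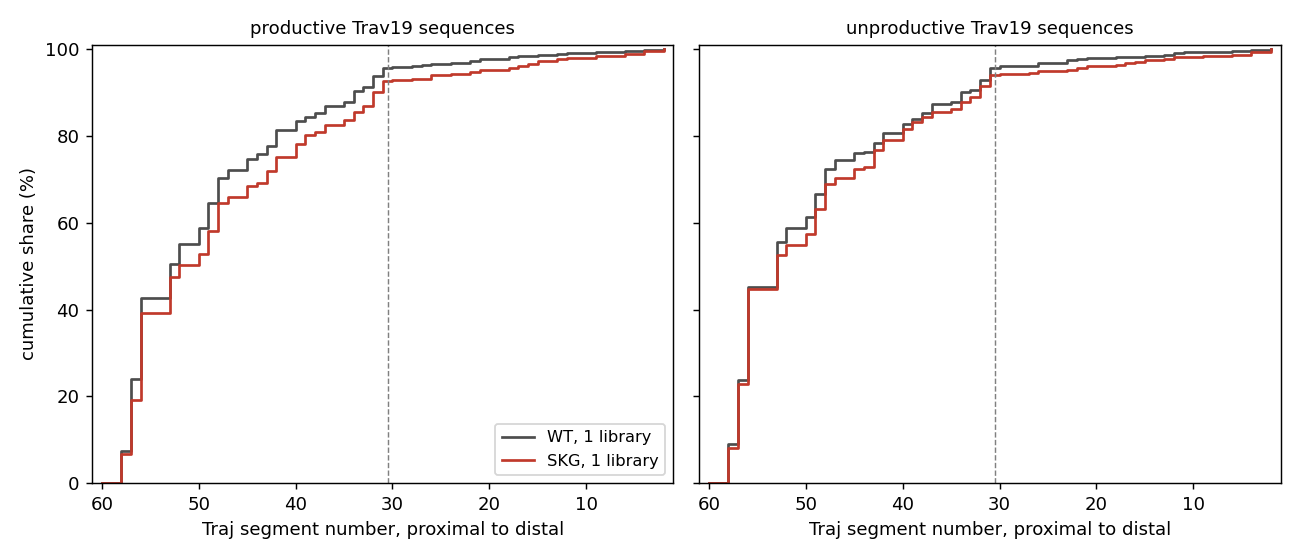
The cumulative share of *Trav19* sequences (y axis, %) is plotted against the *Traj* number from proximal to distal (x axis) for WT (grey) and SKG (red), 1 library each, for productive sequences on the left and unproductive sequences on the right. The dashed line is the border between proximal and distal segments, and the SKG curve lies below the WT curve by at most 6.71 points among productive and 4.16 points among unproductive sequences.

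Use was also more even in SKG. The effective number of segments, the number of equally used segments that would give the same diversity, was 17.2 in WT and 19.3 in SKG for productive sequences, and 16.0 and 17.1 for unproductive ones. The 10 most used segments held 76.6% of the productive WT sequences and 71.5% of the SKG ones. Measured along the DNA, the mean position of a productive join was 51.0 kb before the last *Traj* segment in WT and 48.9 kb in SKG.

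Among the proximal segments, the loss in SKG was carried by few members. *Traj57* was joined in 39162 WT sequences, or 16.7% (95% CI 16.6 to 16.9), and in 31407 SKG sequences, or 12.5% (95% CI 12.3 to 12.6). *Traj52* held 10633 WT sequences (4.54%) and 7273 SKG sequences (2.89%), and *Traj50* held 8739 (3.73%) and 6021 (2.39%). Together these 3 segments made a difference (SKG minus WT) of -7.24 points, out of -10.3 points summed over the proximal segments that were lower. Segments near them went either way.

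*Traj56*, which lies between *Traj57* and *Traj53* and was the most used segment of both libraries, was joined in 43717 WT sequences (18.6%) and 50427 SKG sequences (20.0%). *Traj53* was joined in 18204 (7.77%) and 20883 (8.29%), and *Traj48* was at 5.82% in WT and 6.32% in SKG. The nearest of the used segments, *Traj58*, was at 7.38% and 6.73%, and *Traj49* was at 5.75% and 5.37%. Runs of lower and of higher segments therefore followed each other at the proximal end, and the difference there was not an even decline with distance.

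Further proximal gains lay in the middle of the array. *Traj39* had 2326 sequences in WT (0.992%) and 5065 in SKG (2.01%), which was 2.02-fold higher in SKG, and *Traj33* had 1827 (0.779%) and 3530 (1.40%), a log2 ratio of 0.85. *Traj43* was at 1.82% and 2.70%, *Traj40* at 2.20% and 2.92%, *Traj35* at 0.884% and 1.17%, *Traj32* at 2.61% and 3.17%, and *Traj31* at 1.89% and 2.61%. Against this direction, *Traj34* was lower in SKG, with 6024 WT sequences (2.57%) and 4297 SKG sequences (1.70%), and so was *Traj44*, with 2841 (1.21%) and 1835 (0.728%). *Traj44* is an ORF in the IMGT classes, a segment without a stop codon that lacks a feature of a functional J. The other segments at 1% or more had log2 ratios of SKG to WT of 0.02 at *Traj45*, -0.12 at *Traj42*, -0.32 at *Traj47* and -0.06 at *Traj37*.

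**Figure D3:**
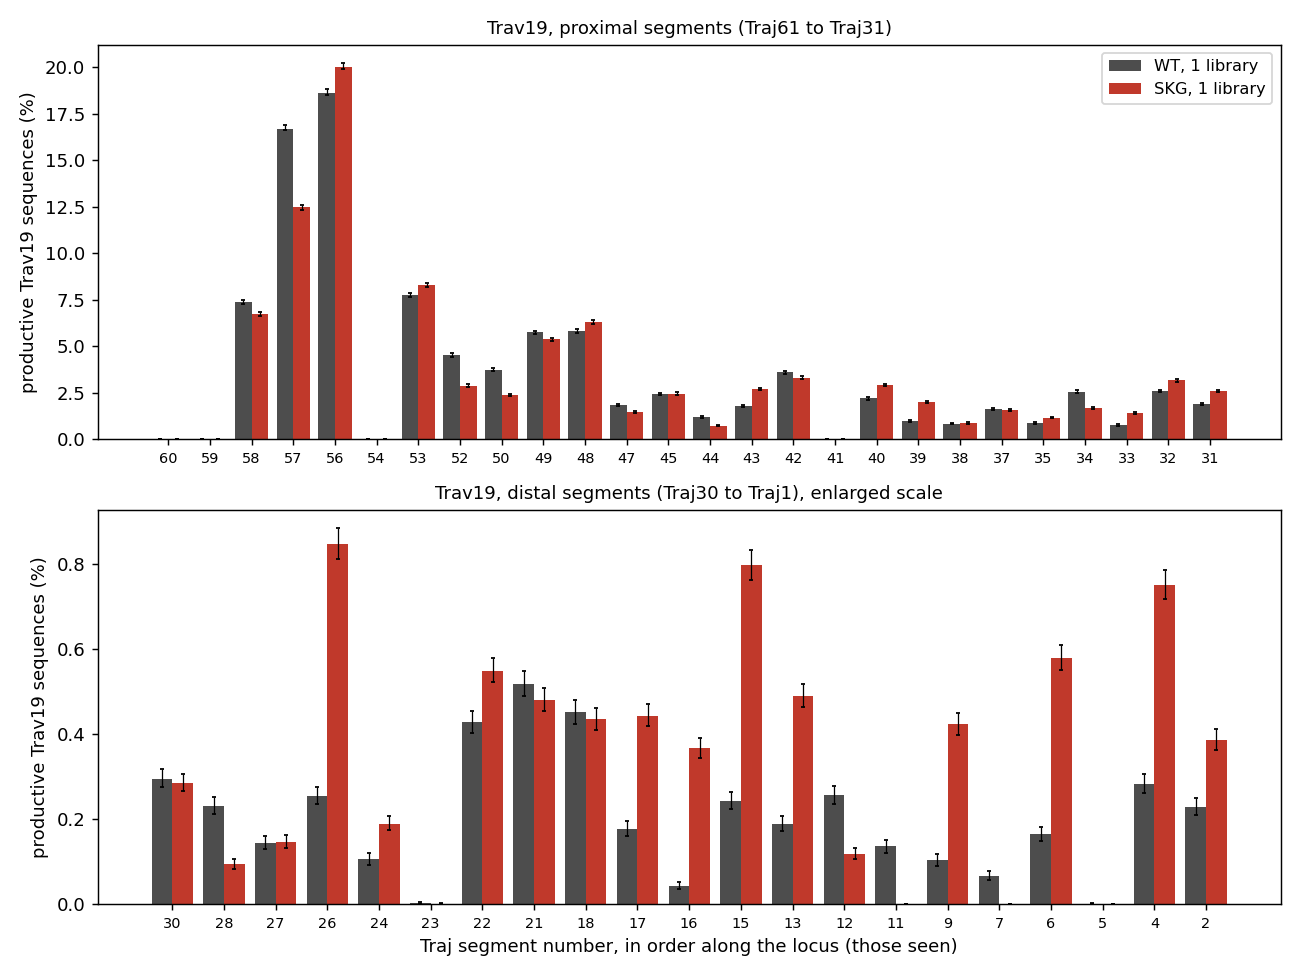
The share of productive *Trav19* sequences (y axis, %) is plotted for each *Traj* segment seen (x axis, in the order of the locus) in WT (grey) and SKG (red), 1 library each, with 95% Wilson intervals for counting error, and the lower panel enlarges the distal segments. *Traj57* was at 16.7% in WT and 12.5% in SKG while *Traj56* beside it was at 18.6% and 20.0%, and in the lower panel *Traj26*, *Traj15* and *Traj4* reached the highest SKG levels.

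Taking the array as a whole, 42 segments had at least 50 productive sequences over both libraries. Of these, 13 were at least 1.5-fold higher in SKG (31.0%) and 8 were at least 1.5-fold lower (19.0%), a 1.5-fold difference being 0.585 on the log2 scale. Among unproductive sequences it was 11 of 41 segments (26.8%) and 4 of 41 (9.76%). The higher ones were not spread evenly, as 10 of the 13 lay among the 19 distal segments counted and 3 among the 23 proximal ones. The lower ones were 4 distal and 4 proximal segments. *Traj41*, a proximal segment among the higher ones, and *Traj11* and *Traj7*, distal ones among the lower, were at 0 in 1 library. They passed the minimum of 50 through the other library alone, so their calls followed from the filter. The same held for *Traj11* and *Traj5* among the lower segments of the unproductive class. The median log2 ratio was 0.75 over the distal segments and 0.10 over the whole array, the same with segments at 0 in 1 library set to their bound.

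Of the distal segments, 12 had a higher share in SKG, with a summed gain of 3.61 points, and 9 had a lower share, with a summed difference of -0.546 points. *Traj26* gained most, from 600 WT sequences, or 0.256% (95% CI 0.236 to 0.277), to 2136 SKG sequences, or 0.847% (95% CI 0.812 to 0.884). *Traj15* was joined in 572 WT sequences (0.244%) and 2010 SKG sequences (0.797%), and *Traj4*, an ORF near the far end, in 666 (0.284%) and 1895 (0.752%). These 3 segments had the highest distal shares in SKG, whereas in WT the highest distal share was that of *Traj21*, at 0.518%, followed by *Traj18* at 0.452% and *Traj22* at 0.428%.

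Smaller gains followed over the outer segments. *Traj6* was joined in 386 WT sequences (0.165%) and 1462 SKG sequences (0.580%), which was 3.52-fold higher, and *Traj9* in 243 (0.104%) and 1068 (0.424%), 4.08-fold higher. *Traj16* had the highest ratio of a distal segment counted in both libraries, with 104 WT sequences (0.0444%) and 926 SKG sequences (0.367%), or 8.25-fold. The 5 distal segments with the largest gains, *Traj26*, *Traj15*, *Traj4*, *Traj6* and *Traj16*, added up to 2.35 points, and the largest 9 to 3.40 points.

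*Traj17* and *Traj13* were 2.49-fold and 2.59-fold higher in SKG, and *Traj2*, the last segment of the array that was used, was 1.69-fold higher, at 0.230% in WT and 0.387% in SKG. *Traj24* was 1.79-fold higher, at 0.106% and 0.190%. *Traj22* was 1.28-fold higher, with 1004 WT sequences (0.428%) and 1386 SKG sequences (0.550%). Other distal segments with many sequences were nearly level. *Traj18*, the segment of the invariant chain of iNKT cells when it is joined to *Trav11*, was joined to *Trav19* in 1059 WT sequences (0.452%, 95% CI 0.425 to 0.480) and 1099 SKG sequences (0.436%, 95% CI 0.411 to 0.463), and *Traj21* in 1215 (0.518%) and 1210 (0.480%). The intervals of *Traj18* overlapped between the libraries, and so did those of *Traj30*, *Traj27* and *Traj21*.

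Some distal segments were lower in SKG. *Traj28* was joined in 543 WT sequences (0.232%) and 239 SKG sequences (0.0948%), and *Traj12* in 602 (0.257%) and 298 (0.118%). *Traj11* was joined in 320 productive and 308 unproductive WT sequences and in no SKG sequence of either class. Against the limit of 3 sequences per library, its productive share was at least 115-fold higher in WT. Its unproductive share was at least 75.8-fold higher. *Traj7*, an ORF, was joined in 156 productive WT sequences and in no SKG sequence, at least 55.9-fold higher in WT. These bounds count each listed sequence as independent, so they would not hold where many listed sequences came from few joins.

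*Traj11* and *Traj7*, at 0 with *Trav19* in SKG, were present in sequences of other *Trav* genes from SKG mice. So was *Traj5*, which was joined to *Trav19* in 1 productive and 61 unproductive WT sequences and in no SKG sequence. *Trav9d-3* is a gene of the *Trav9* family, and its sequences were chosen by their V assignment from the *Trav9* library, whose primer amplified several genes of the family. Among the productive *Trav9d-3* sequences of SKG, 1818 carried *Traj11* (1.75%), 4176 carried *Traj7* (4.03%) and 2161 carried *Traj5* (2.08%). In the SKG *Trav19* library itself, 19 sequences that listed a *Trav* gene other than *Trav19* carried *Traj11* and 37 carried *Traj5*. Only 2 carried *Traj7*, below the limit of 3 sequences. The reverse was seen at *Traj41*, an ORF, which was joined in 92 productive SKG sequences and in no WT sequence. Its share was at least 28.5-fold higher in SKG, by the same way of counting. *Traj41* was in no *Trav9d-3* sequence of either genotype.

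With the distal segments sorted by their recombination signal, 7 of the 9 segments with an exact heptamer were higher in SKG, with a median log2 ratio of 1.71, and 5 of the 10 segments with at least 1 mismatch were higher, with a median of 0.15. *Traj26*, *Traj16* and *Traj15* were among the former and *Traj11*, whose heptamer has 2 mismatches, among the latter. *Traj12*, which has the exact heptamer, was lower in SKG, and *Traj4*, with 1 mismatch, was 2.65-fold higher. These groups were formed with the ratios of these segments known, and the difference was not tested.

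**Figure D4:**
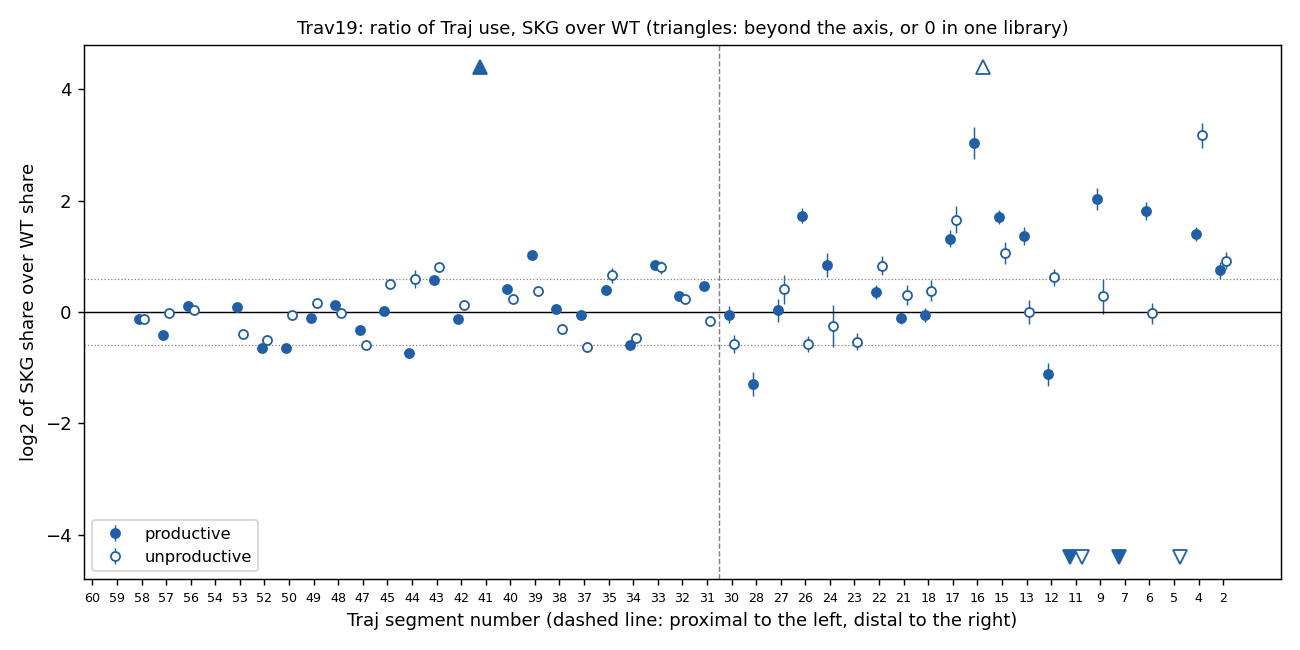
The log2 ratio of the SKG share to the WT share (y axis) is plotted for each *Traj* segment (x axis) with at least 50 *Trav19* sequences of a class over both libraries, for productive (filled) and unproductive (open) sequences, with 95% counting intervals and dotted lines at 1.5-fold. Triangles are segments at 0 in 1 library or, for unproductive *Traj16*, beyond the axis, and the ratios spread more widely to the right of the dashed line, among the distal segments.

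The unproductive sequences gave another reading of the same libraries, from sequences classed as encoding no α chain. A copy of a productive join with an error could also fall in this class. The classes are therefore not certain to be separate sets of joins, and this was not tested. Over 39 segments counted in both classes, 26 had the same direction in both. Proximal segments had the same direction in 15 of 22 and distal ones in 11 of 17, and the log2 ratios of the classes differed with an SD of 0.46 over the proximal and of 1.37 over the distal segments. Without *Traj11*, which was at 0 in SKG, the distal SD was 1.41 over 16 segments. The classes thus differed more at the distal segments, which also had fewer sequences.

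At least 1.5-fold higher in SKG in both classes were *Traj33*, *Traj17*, *Traj16*, *Traj15*, *Traj4* and *Traj2*. *Traj16* had 10 unproductive WT sequences (0.00533%) and 419 unproductive SKG sequences (0.302%), and *Traj4* had 179 (0.0953%) and 1189 (0.857%). *Traj17* had 186 (0.0991%) and 436 (0.314%), and *Traj15* had 374 (0.199%) and 575 (0.415%). At least 1.5-fold lower in both was *Traj11* alone, of the segments counted in both classes, and it was at 0 in SKG in both.

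Past 1.5-fold among productive sequences, with the other direction among unproductive ones, were *Traj44*, *Traj26*, *Traj24*, *Traj12* and *Traj6*. *Traj26*, the segment with the largest distal gain in points, had 1209 unproductive WT sequences (0.644%) and 601 unproductive SKG sequences (0.433%), a log2 ratio of -0.57 beside 1.73 for productive ones. *Traj12* had 666 (0.355%) and 755 (0.544%), a log2 ratio of 0.62 beside -1.12. *Traj6* was nearly level among unproductive sequences, with 508 (0.271%) and 371 (0.268%), and *Traj13* was level, at 0.221% in both libraries. *Traj57* and *Traj50*, which carried the proximal loss, were also nearly level among unproductive sequences, with log2 ratios of -0.02 and -0.06, whereas *Traj52* was lower in both classes (-0.65 and -0.50). *Traj53* was at 10.2% of unproductive WT and 7.79% of unproductive SKG sequences, against its direction among productive ones.

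As a measure over the whole array, the total variation distance is the share of sequences that would have to move to other segments to turn the use of one list into that of another. It was 10.9 points between WT and SKG for productive and 7.84 points for unproductive sequences. Between the first and the second part of the same list, split in equal parts by identifier, it was 0.908 points in WT and 1.04 points in SKG. Both parts come from the same library, so this distance covers counting error only and not the spread between libraries. Between productive and unproductive sequences of the same library it was 11.2 points in WT and 8.54 points in SKG, so that the genotypes differed by about as much as the classes did within a library.

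The share of *Trav19* sequences that were productive was higher in SKG at most segments. Among 40 segments that each library covered with 50 sequences or more, 34 had a higher productive share in SKG, among them 20 of 22 proximal and 14 of 18 distal segments, with a median difference of 6.54 points over all 40. At *Traj56* it was 51.8% in WT and 62.2% in SKG, at *Traj53* 48.6% and 65.9%, and at *Traj58* 50.7% and 59.8%. At *Traj57* it differed less, at 58.6% and 60.9%, and at *Traj50* it was 64.7% and 64.0%. Over all segments the productive share was 55.5% in WT and 64.5% in SKG with *Trav19*, and 61.0% and 70.1% with *Trav9d-3*. With *Trav11* it was nearly level, at 55.2% and 55.6%.

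The productive share was spread more widely at the distal segments. Over the segments of the WT library with at least 50 sequences it ran from 42.4% at *Traj38* to 82.2% at *Traj44* among proximal segments (SD 9.31 points, 22 segments) and from 0.813% at *Traj23* to 96.9% at *Traj7* among distal ones (SD 25.2 points, 21 segments). In SKG the SD was 7.59 points over 23 proximal and 22.3 points over 18 distal segments. *Traj26* went from 33.2% in WT to 78.0% in SKG and *Traj9* from 59.9% to 88.0%, while *Traj12* went the other way, from 47.5% to 28.3%, as did *Traj16*, from 91.2% to 68.8%, and *Traj4*, from 78.8% to 61.4%. Among sequences that listed *Trav9d-3* in the *Trav9* libraries, these segments differed by fewer points between the genotypes, and all were higher in SKG. The productive share was 67.0% in WT and 72.4% in SKG at *Traj26*, and 68.3% and 72.2% at *Traj9*. The segments that were lower in SKG with *Trav19* thus went the other way, at 55.3% and 70.5% (*Traj12*), 62.3% and 71.9% (*Traj16*), and 59.0% and 73.2% (*Traj4*).

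*Traj23* was almost wholly unproductive, whatever the library. It was joined to *Trav19* in 8 productive and 976 unproductive WT sequences, a productive share of 0.813%, and in 4 productive and 499 unproductive SKG sequences, a share of 0.795%. With *Trav9d-3* its productive share was 2.79% in WT and 0.939% in SKG. IMGT lists *Traj23* as functional. *Traj28* was the opposite, with a productive share of 94.6% in WT and 98.0% in SKG with *Trav19*, but it was at 80.7% and 63.0% with *Trav9d-3*.

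**Figure D5:**
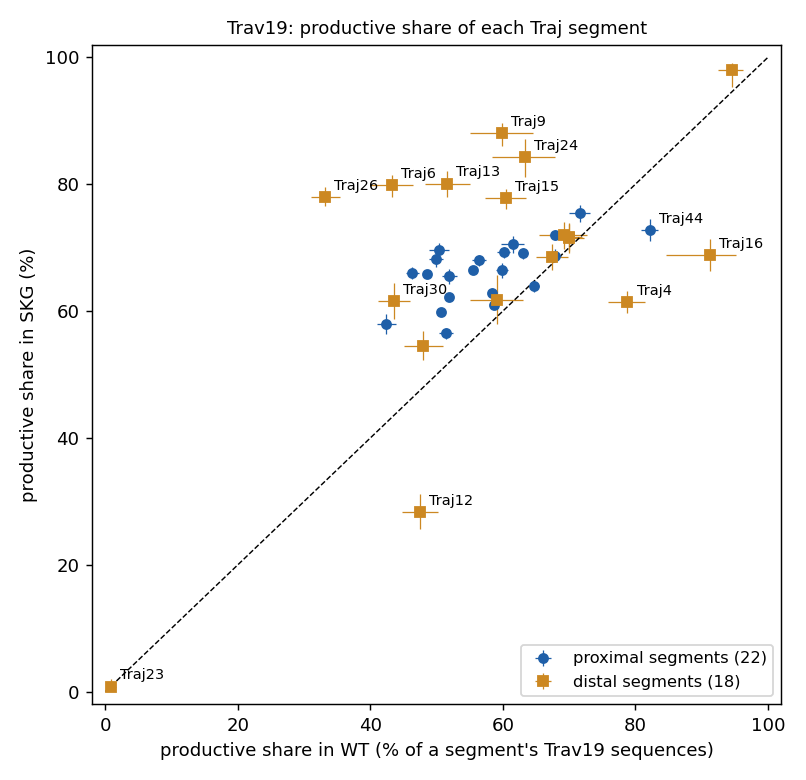
The productive share of the *Trav19* sequences of each *Traj* segment, in %, is plotted for SKG (y axis) against WT (x axis) over 40 segments with 50 sequences or more in both libraries, with 95% Wilson intervals, for proximal (circles) and distal (squares) segments. Of these segments 34 lie above the dashed line of equal shares. The farthest from it is distal, *Traj26* at 33.2% in WT and 78.0% in SKG. Other distal segments lie close to it, such as *Traj18* at 70.0% and 71.5%.

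The *Trav9d-3* sequences of the *Trav9* libraries and the *Trav11* sequences of the *Trav11* libraries, which are separate amplicons of the same genotypes, also held more distal joins in SKG. Their productive distal share differed by 5.49 points (*Trav9d-3*) and 3.80 points (*Trav11*), beside 3.06 points (*Trav19*). Their ratios of SKG to WT were 1.10 and 1.08, beside 1.71. With *Trav19* the ratio rose with each distal window farther out. For the same windows, in the same order, it was 1.14, 1.09 and 1.06 with *Trav9d-3* and 1.08, 1.04 and 1.16 with *Trav11*. Fewer single segments passed 1.5-fold among productive *Trav9d-3* and *Trav11* sequences. No *Trav9d-3* segment of 43 was at least 1.5-fold higher in SKG and 3 were lower, and 4 of 36 *Trav11* segments were higher and 4 lower. For *Trav19* it was 13 and 8 of 42, with *Traj41*, *Traj11* and *Traj7* included. Among unproductive sequences the counts were 2 higher and 3 lower of 44 for *Trav9d-3*, 10 and 7 of 39 for *Trav11*, and 11 and 4 of 41 for *Trav19*. The total variation distance between the genotypes was nevertheless similar, at 8.61 points in *Trav9d-3* and 10.5 points in *Trav11* sequences. The distal segments rested on fewer sequences with *Trav19*, where *Traj21* had the most in WT, 1215 productive ones, than with *Trav9d-3*, where *Traj4* had 9390. Whether the amplicons differ in their response to the genotype was not tested.

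The distal segments with large ratios for *Trav19* were closer to level for *Trav9d-3*. *Traj26*, *Traj16*, *Traj15*, *Traj9* and *Traj6* had log2 ratios of 1.73, 3.04, 1.71, 2.03 and 1.82 with *Trav19*, and of 0.22, -0.22, 0.06, -0.25 and 0.14 with *Trav9d-3*. *Traj57*, *Traj52* and *Traj50* were lower in SKG with all of the amplicons, with log2 ratios of -0.42, -0.65 and -0.64 with *Trav19*, of -0.73, -0.53 and -0.53 with *Trav9d-3*, and of -0.43, -0.94 and -0.66 with *Trav11*. *Traj56* had a log2 ratio of 0.10 with *Trav19*, of -0.87 with *Trav9d-3* and of -0.52 with *Trav11*.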

How the data were processed

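Amplicons of *Trav19* from pre-selection DP thymocytes were sequenced on a MiSeq, 1 library per genotype. The labels name genomic DNA as the molecule, but the protocol describes cDNA made from RNA, which is followed here. The authors obtained clonal sequences with MiXCR, used cutadapt 1.13 to trim the primers and kept each distinct sequence once, after which IMGT/HighV-QUEST called the gene segments at its default options. Lists of over 500000 sequences were split for that step. The deposited lists give the functionality class, V and J assignments of every distinct sequence under a running number, so that a share is neither a share of reads nor of cells. Variants of the same rearrangement that arose by error would be counted apart. Some of them could be classed as unproductive though the join was productive. The number of starting molecules is not given in the sources used here.

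From these lists, sequences listing *Trav19* and a single *Traj* gene were counted per segment and class. Productive sequences were the main setting, with 234415 in WT and 252048 in SKG. Log2 ratios of shares had 0.5 added to each count, and a segment was compared when at least 50 sequences were counted over both libraries and called at 1.5-fold. Segments 1 to 30 were distal. The segments named were every one with at least 1% of the productive sequences of either library, the 5 distal ones with the most sequences, the 4 highest and 4 lowest ratios, and *Traj18* and *Traj33*. Others are named where a count called for it, after their values were seen. Members, segment groups and measures were chosen with earlier results of these data known. The labels name mm10, but the lists hold no coordinates. Reference bases and positions come from NCBIM37 and its GENCODE annotation, with names through the RefSeq table of GRCm38.p6, and *Traj47* and *Traj10* were not matched. Calculations used Python 3.11.15, numpy 2.4.6, pandas 2.3.3 and scipy 1.17.1, and figures matplotlib 3.10.9. They were tested on simulated independent counts, which hold no PCR copies or error variants, so that test does not cover these features of the lists. Alternatives were other classes, other V and J filters, parts of each list, other boundaries, minimum counts and folds.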

Additional observations from a re-analysis of the deposited data

Results flagged for a closer look

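The *Trav19* libraries also held sequences that list no *Trav19*, which enter no comparison of the report. There were 4497 in the WT library (1.05% of its sequences, 95% CI 1.02 to 1.09) and 6346 in the SKG library (1.60%, 95% CI 1.56 to 1.64), against a limit of 3 sequences. Most listed *Trav4d-3* alone, 3841 in WT (85.4%) and 5096 in SKG (80.3%). Segments 1 to 30 made up 61.0% of these WT sequences (95% CI 59.6 to 62.4). In SKG they made up 54.2% (95% CI 52.9 to 55.4), so that their distal share was lower in SKG, in the same libraries in which that of *Trav19* was higher. Their productive share was 57.3% in WT and 64.8% in SKG. *Traj15* was their most used segment in WT, with 12.3%, and *Traj22* in SKG, with 8.01%. The origin of these sequences was not tested.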

How the results depend on the processing

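The direction of the distal share, mean *Traj* number and productive share differences held under each alternative run. The distal difference of 3.06 points was 1.60 in unproductive sequences, 2.53 in all classes, 2.61 with segments 1 to 25 as distal and 6.09 with segments 1 to 40 as distal. The mean *Traj* number differed by -1.84, by -0.988 in unproductive sequences and by -1.57 in all classes, or by -2.04 kb when measured along the DNA. The total variation distance of 10.9 points was 7.84 in unproductive sequences and 8.67 in all classes. The count of 8 segments at least 1.5-fold lower was 4 in unproductive sequences, 5 in all classes and 4 at a fold of 2. The productive share difference of 8.98 points was 8.59 with SKG segments weighted by their WT share. Of 35 named segments, 30 had the same sign in all classes. Of the 32 with enough unproductive sequences, 21 had the same sign there and 11 the other, among which *Traj44* (0.59), *Traj26* (-0.57), *Traj12* (0.62) and *Traj6* (-0.02) had been past 1.5-fold. The cause was not tested. Identical sequences were merged before deposit, so depth per rearrangement is unknown, and the distal segments rest on few sequences. No paired analysis was possible because each genotype had 1 library, and for the same reason no replicate could be left out.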

Other observations

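For 5 genes examined, the most listed allele was the same in both libraries. *Trav19* was assigned to allele 01 in 99.98% of the WT and 99.99% of the SKG sequences, and *Traj32* to allele 02 alone in 10176 of 10178 and 11523 of 11525 sequences. With *Traj35*, allele 02 took 99.3% in WT and 99.2% in SKG, and with *Traj43* allele 01 took 91.0% and 90.6%. At *Traj31*, allele 02 alone took 80.2% in WT and 86.9% in SKG, and allele 01 alone took 11.2% and 10.9%.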
